A study of Mus musculus with 463 samples.

Results

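Ventral and dorsal pancreas were compared in the Ngn3-low gate of E14.5 mouse embryos (E, embryonic day), by bulk RNA-seq of sorted cells. The comparison rests on 4 libraries, 2 from the ventral and 2 from the dorsal pancreas, chosen by their labelled organ, day and gate from the 16 bulk libraries of a series of 463 samples. The whole series followed ventral and dorsal pancreas cells through development, in bulk libraries of Pdx1+ cells at E10.5, Ngn3-high and Ngn3-low cells at E14.5 and Ins1+ cells at E17.5, and in single cells. All 4 libraries used here came from embryos with an Ngn3-GFP reporter, from which cells of low GFP were sorted. Both sides carry the same reporter and no treatment is labelled. The reporter limits what the gate means, because green fluorescent protein can outlast the transcript of the gene it reports, and low fluorescence does not select 1 cell type. Each library was made from poly(A) RNA of many sorted cells. The labels do not say whether replicates came from separate litters or sorts. The p-values therefore measure only the spread between replicate libraries, which may be technical. That spread was estimated over all 16 bulk libraries.

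The pancreas grows from a dorsal and a ventral bud of the foregut, and the ventral bud arises beside the liver and the bile duct. At mid-gestation its epithelium is divided into acinar tips, which make digestive enzymes, and a trunk that gives rise to ducts and, through cells that switch on Neurog3 (also called Ngn3), to endocrine cells. Cells with little reporter can therefore be tip or trunk cells, cells at the start or end of Neurog3 expression, or vessel, immune and mesenchymal cells carried along by the sort.

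Of 17690 genes tested, 3 passed (0.017%, edgeR quasi-likelihood test with Benjamini-Hochberg adjusted p under 0.05). All encode transcription factors. Sim1 and Barx1 were lower in ventral libraries (0.0113% of genes) and Shox2 was higher (0.00565%). The promoter stretches of these 3 genes are shown because they are the genes on which the comparison turns. They come from RefSeq on GRCm38.p6, within 250 bases before the RefSeq start site, trimmed to bases that hold no annotated exon of the same strand, and run 5′ to 3′ on the strand of the gene. Capitals mark an E-box (CANNTG, the site of basic helix-loop-helix factors) in Sim1 and a TATA box (TATAAA) in Shox2.
Sim1, chr10:50895401-50895472, plus strand: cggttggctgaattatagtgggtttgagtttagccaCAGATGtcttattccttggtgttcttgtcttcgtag
Shox2, chr3:66981772-66982021, minus strand: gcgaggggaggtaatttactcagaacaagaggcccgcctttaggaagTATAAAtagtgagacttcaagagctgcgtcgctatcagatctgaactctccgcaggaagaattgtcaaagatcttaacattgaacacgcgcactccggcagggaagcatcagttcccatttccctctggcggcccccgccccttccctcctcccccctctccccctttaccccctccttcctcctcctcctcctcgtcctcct
Barx1, chr13:48662786-48662997, plus strand: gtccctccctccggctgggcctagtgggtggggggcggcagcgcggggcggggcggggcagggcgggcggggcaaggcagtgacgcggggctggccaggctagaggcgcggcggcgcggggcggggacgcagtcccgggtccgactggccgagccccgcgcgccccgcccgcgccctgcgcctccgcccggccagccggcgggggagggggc

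Both strands of the 250 bases before each start site were searched for 3 motifs, and matches are given by their first base counted from the start site. Sim1 held 2 E-boxes, at -214 and -53, and a TATA box at -14, of which only the E-box at -53 lies in the printed stretch. Shox2 held a TATA box at -203, and Barx1 held none of the motifs. The homeodomain core TAATTA was absent from all 3. For comparison, an E-box was found in 66.2% of 32851 RefSeq promoters of that length, a TATA box in 12.4% and TAATTA in 4.84%. The share of G and C was 45.6% in Sim1, 55.6% in Shox2 and 85.6% in Barx1, against a mean of 53.2% over all promoters. These matches describe letters and say nothing of binding. The Sim1 stretch lies inside the longer gene span of GENCODE vM21.

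Between 14538594 and 15872088 reads per library fell on genes, and 20333 to 20747 genes had at least 1 read. All bulk libraries of the series ranged from 8779418 to 24551520 reads. A level is given in CPM (read counts relative to the library total, as adjusted by the TMM method), and fold changes are log2 values, ventral over dorsal. Replicates differed by more than sampling noise, with a mean chi-square per gene of 6.93 between the dorsal libraries, where noise alone gives 1, and a larger one between the ventral libraries. Neurog3, the gene behind the reporter, stood at 98.4 and 149 CPM in dorsal and 108 and 126 CPM in ventral libraries, against 860 to 1011 CPM in the 4 Ngn3-high libraries. Xist, at 931 to 1533 CPM, and the Y-linked Ddx3y, at 43.2 to 45.7 CPM, were both present in every library, so each library held RNA from embryos of both sexes.

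Libraries of the same side also differed from each other before any comparison of sides. Dorsal library 1 had 0 reads for Shh, Cdx2 and Isx, all genes of gut or foregut epithelium, while the other 3 libraries stood at 3.24 to 6.01 CPM for Shh, 2.73 to 5.57 CPM for Cdx2 and 1.49 to 3.44 CPM for Isx. Dorsal library 2 was the highest for Gcg, Cldn18 and Nkx6-3. Library 1 was the higher of the pair for all 16 endothelial markers on both sides. Ventral library 1 held the most collagen RNA, with 443 CPM of Col1a1 against 70.1 to 144 CPM in the other 3 libraries. In bulk libraries, fewer cells of a type and less RNA per cell cannot be told apart.

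Sim1, a basic helix-loop-helix and PAS domain transcription factor, had the smallest p of all genes tested. The gene lies on chromosome 10 from 50894754 to 50989152 on the plus strand of GRCm38. It stood at 35.7 and 40.2 CPM in the dorsal libraries and at 0.712 and 1.42 CPM in the ventral libraries, from 1218 reads against 35. Both dorsal libraries were far above both ventral ones. The means were 37.9 ± 3.20 CPM (SD, n = 2) in dorsal and 1.07 ± 0.502 CPM in ventral libraries, and Sim1 was lower in ventral cells with a log2 fold change of -5.12 (SE 0.34, edgeR adjusted p = 6.16e-05).

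The dorsal bias of Sim1 was present in every bulk gate of the series. In E10.5 Pdx1+ cells Sim1 stood at 70.2 and 88.2 CPM dorsally and 1.23 and 0.665 CPM ventrally (log2 fold change -6.41, SE 0.37, edgeR adjusted p = 5.15e-08). In E14.5 Ngn3-high cells it stood at 116 and 114 CPM dorsally and 1.04 and 2.59 CPM ventrally (-5.93, SE 0.31, edgeR adjusted p = 1.52e-06). In E17.5 Ins1+ cells the values were 31.4 and 33.5 CPM against 1.93 and 3.96 CPM (-3.52, SE 0.31, edgeR adjusted p = 0.000638). The side difference of Ngn3-low cells was not shown to differ from that of Ngn3-high cells (low minus high 0.80, SE 0.55, edgeR adjusted p = 1.00), although the dorsal level was lower in Ngn3-low cells.

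Shox2, a homeobox transcription factor, was the only gene that passed with a higher ventral level. It lies on chromosome 3 from 66971727 to 66981771 on the minus strand. Its levels were 0.372 and 0.0626 CPM in the dorsal libraries and 2.53 and 2.73 CPM in the ventral libraries, which are 7 reads against 85. The groups did not overlap, and the ventral libraries were alike while the dorsal ones held 6 and 1 reads. Shox2 was higher by 3.54 on the log2 scale (SE 0.44, edgeR adjusted p = 0.00495). The call did not hold when the spread was estimated from the 8 E14.5 libraries alone (edgeR adjusted p = 0.102) or from the 4 Ngn3-low libraries alone (0.748).

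Shox2 was also higher ventrally in E10.5 Pdx1+ cells, at 1.93 and 1.51 CPM dorsally against 24.7 and 29.1 CPM ventrally (3.97, SE 0.32, edgeR adjusted p = 9.13e-08). In Ngn3-high cells it stood at 1.96 and 1.65 CPM against 6.25 and 4.76 CPM (1.58, SE 0.30, edgeR adjusted p = 0.0236). E17.5 Ins1+ cells had 1.20 and 1.08 CPM against 3.31 and 2.71 CPM, which did not pass (1.39, SE 0.36, edgeR adjusted p = 0.881). The ventral level in the Ngn3-low gate was thus below that of the E10.5 libraries, and the ventral libraries were above the dorsal ones in all 4 gates. The larger side difference in Ngn3-low than in Ngn3-high cells did not pass (1.96, SE 0.56, edgeR adjusted p = 0.609).

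Barx1, a homeobox factor known from the mesenchyme of the developing stomach, was read in dorsal libraries only. It lies on chromosome 13 from 48662998 to 48666507 on the plus strand. Dorsal libraries held 2.73 and 1.13 CPM, from 44 and 18 reads, and both ventral libraries held 0 reads. Against a floor of 3 reads over the ventral group (0.0928 CPM), Barx1 was at least 20.8-fold higher in dorsal cells (edgeR adjusted p = 0.0111). The call did not hold without ventral library 1 (edgeR adjusted p = 0.119), without ventral library 2 (0.0809), or with the spread from the 8 E14.5 libraries (0.151) or the 4 Ngn3-low libraries (0.748).

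Elsewhere Barx1 was also lower in ventral cells at E10.5, with 9.11 and 8.34 CPM dorsally and 1.74 and 1.41 CPM ventrally (-2.47, SE 0.44, edgeR adjusted p = 0.000671). Ngn3-high cells held 0.858 and 0.642 CPM against 0.223 and 0.0602 CPM (edgeR adjusted p = 0.261). E17.5 cells held 0.802 and 0.757 CPM against 0.0770 and 0 CPM (edgeR adjusted p = 0.881). The dorsal libraries were above the ventral ones in each gate, and the difference passed at E10.5 and in the Ngn3-low gate only. Whether gates differ was tested only between Ngn3-low and Ngn3-high, where Barx1 did not pass (edgeR adjusted p = 0.742).

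**Figure D1:**
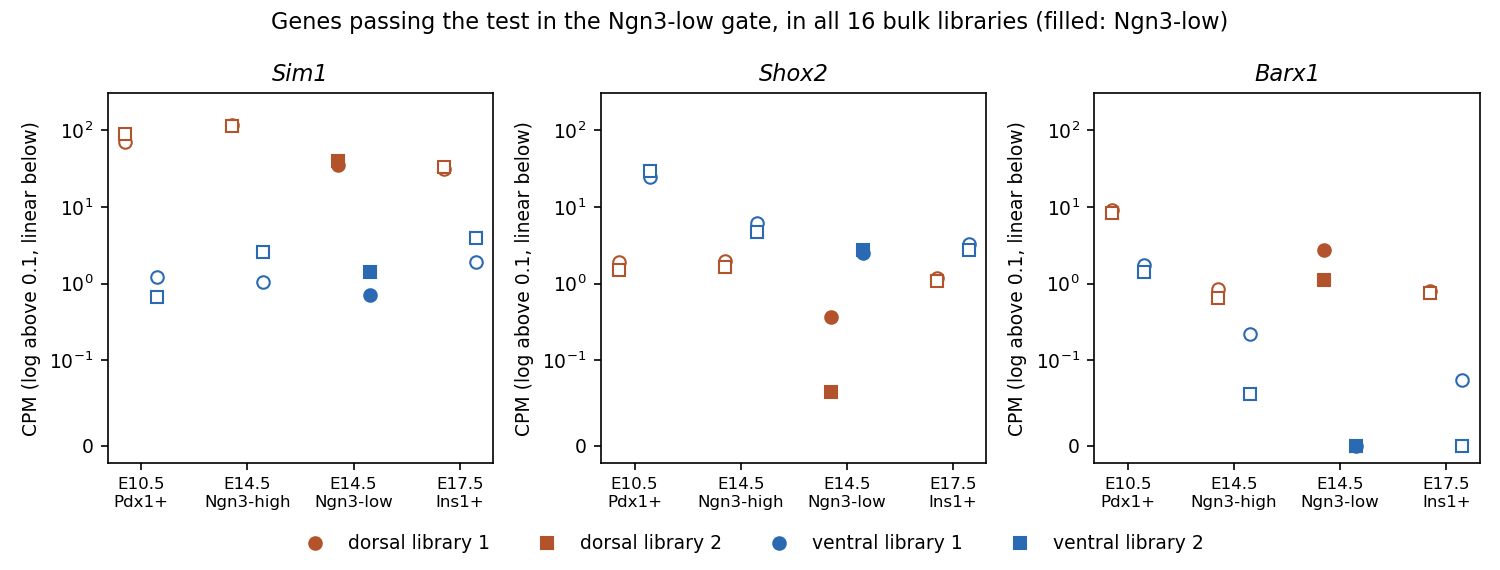
Levels of Sim1, Shox2 and Barx1 (vertical axis, CPM, log scale above 0.1 and linear below) in the 16 bulk libraries, by gate and day, with 1 point per library and the Ngn3-low libraries filled. In the Ngn3-low gate the dorsal points for Sim1 sit at 35.7 and 40.2 CPM, above ventral points at 0.712 and 1.42 CPM, and Barx1 is at 0 in both ventral libraries.

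Shox2 and Barx1 belong to a list of 18 factors of foregut mesenchyme, of which 16 were tested, 1 passed higher and 1 lower, and the median log2 fold change was 0.01 against -0.01 over all genes tested. The 2 groups did not overlap for 1 member higher in ventral libraries (Shox2) and for 3 lower, where 13.3% and 14.8% of all tested genes did so. Besides Barx1 these were Nkx2-5, a homeobox factor of heart and spleen, and Tlx1, a homeobox factor that the spleen needs to form. Nkx2-5 stood at 0.867 and 0.125 CPM in the dorsal libraries, from 14 and 2 reads, and had 0 reads in the ventral ones (edgeR adjusted p = 0.651). Tlx1 stood at 1.92 and 1.00 CPM against 0.453 and 0.178 CPM (-2.20, SE 0.62, edgeR adjusted p = 0.725). Neither passed. For Nkx2-5, Tlx1 and Barx1 the level was higher in dorsal library 1 than in dorsal library 2, and so it was for 14 of the 16 tested factors.

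Mesenchymal RNA differed between libraries of a side. The 16 tested factors, Shox2 and Barx1 included, summed to 45.8 and 29.2 CPM in dorsal libraries 1 and 2 and to 57.8 and 22.9 CPM in ventral libraries 1 and 2. Shox2 was as high in ventral library 2 as in ventral library 1, while the collagen gene Col3a1 stood at 104 CPM in library 2 and 439 CPM in library 1. Barx1 had 0 reads in the ventral library with the most collagen RNA. The part of mesenchymal cells in the Shox2 and Barx1 differences was not tested.

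Beyond these genes most measured differences between the sides were small. With 2 libraries a side, not passing does not show that a gene was equal on both. The median size of a log2 fold change over all tested genes was 0.10, and 95% of genes lay within 1.19. At an unadjusted p under 0.05 there were 599 genes (3.39%), of which 350 were higher and 249 lower. Of the tested genes, 45.6% had a fold change above 0.

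**Figure D2:**
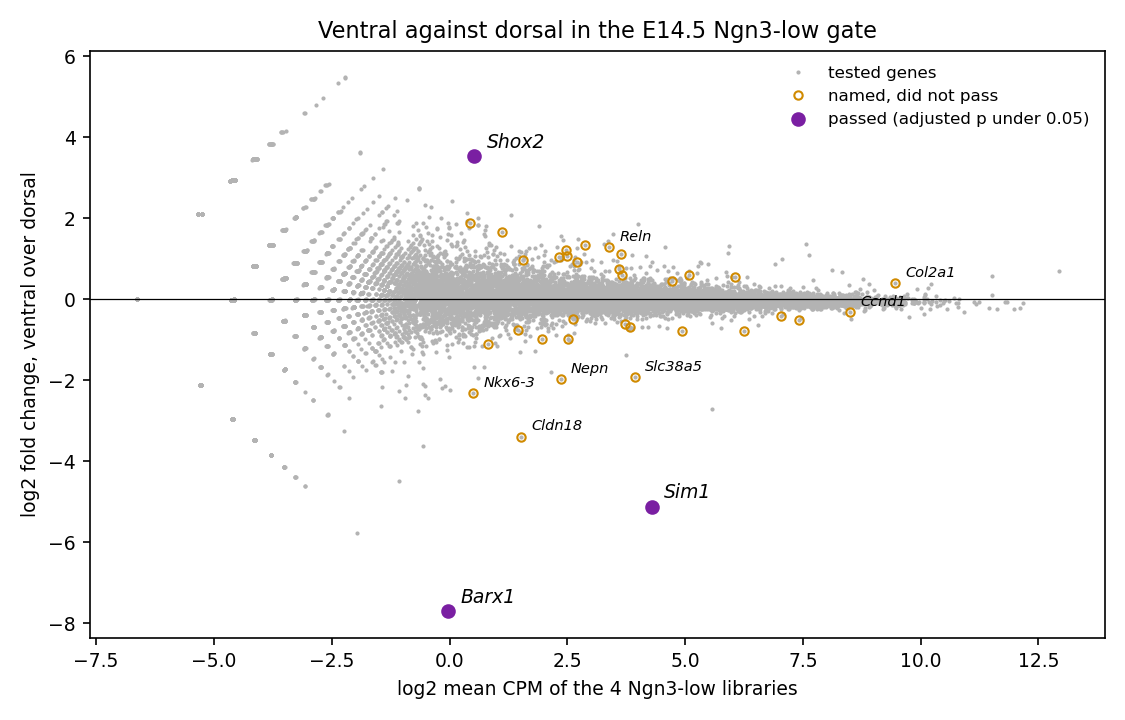
Log2 fold change, ventral over dorsal (vertical axis), against the log2 mean CPM of the 4 Ngn3-low libraries (horizontal axis) for each tested gene, with the 3 genes that passed in purple and the 32 leading genes that did not pass ringed. Most genes lie near 0; Barx1 is drawn at its fitted value, which depends on the prior count because its ventral libraries hold 0 reads.

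Among genes that did not pass, those with the smallest p and groups that did not overlap were listed, 16 in each direction. Since they were listed for their difference here, their Ngn3-low values are a description. They did not pass in edgeR, but DESeq2 called Reln, Robo2, Paqr9, Slc2a3, Col2a1 and Fgg of the higher group. Of the lower group it called Gc, Ccnd1, Osgin1, Slc38a5, Nepn and Tmem27. The rest of the listed genes were not called by DESeq2. Reln, which encodes the secreted guidance protein reelin, stood at 5.20 and 6.95 CPM in dorsal and 17.4 and 12.2 CPM in ventral libraries (1.28, SE 0.24, edgeR adjusted p = 0.265). Robo2, a receptor for Slit guidance proteins, stood at 4.83 and 4.13 CPM against 8.74 and 8.18 CPM (0.91, SE 0.16, edgeR adjusted p = 0.193). For both genes each ventral library was above each dorsal one, by a margin wider than the spread within a side for Robo2.

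Paqr9, a member of the adipoQ receptor family, stood at 9.11 and 8.83 CPM against 15.9 and 14.3 CPM (0.75, SE 0.14, edgeR adjusted p = 0.225). Slc2a3, a glucose transporter, stood at 6.01 and 9.58 CPM against 18 and 16.2 CPM (1.13, SE 0.21, edgeR adjusted p = 0.265). Col2a1, a fibrillar collagen of cartilage, was by far the most abundant of the 16, at 565 and 644 CPM against 769 and 818 CPM (0.39, SE 0.09, edgeR adjusted p = 0.389). Unlike Col1a1 and Col3a1, Col2a1 was close in the ventral libraries. Slc5a9, a sugar transporter, stood at 54.1 CPM in both dorsal libraries and at 71.9 and 86.0 CPM in the ventral ones (0.55, SE 0.11). Fgg, which encodes the fibrinogen gamma chain of liver, stood at 0.619 and 1.44 CPM against 3.56 and 3.02 CPM (1.67, SE 0.34). The remaining members of this group were Lmo7, Nod1, Meis3, Lphn3, Sorcs1, Ntm, Asic1, Clstn2 and Kcnc2, with log2 fold changes from 0.46 (Nod1) to 1.89 (Asic1).

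The lower group held genes of several roles. Gc, the vitamin D binding protein, which is also made by alpha cells, stood at 153 and 148 CPM in dorsal and 112 and 115 CPM in ventral libraries (-0.41, SE 0.07, edgeR adjusted p = 0.204). Ccnd1, the G1 cyclin D1, stood at 407 and 395 CPM against 327 and 321 CPM (-0.31, SE 0.08, edgeR adjusted p = 0.509). Clps, the colipase of acinar cells, stood at 193 and 209 CPM against 148 and 132 CPM (-0.52, SE 0.14, edgeR adjusted p = 0.651). In these 3 genes replicates of a side were close and the sides were apart.

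Spry2, an inhibitor of receptor tyrosine kinase signalling, stood at 15.3 and 16.4 CPM against 10.9 and 9.96 CPM (-0.60, SE 0.13, edgeR adjusted p = 0.265). Osgin1, an oxidative stress response gene, stood at 37.4 and 40.1 CPM against 23.8 and 21.5 CPM (-0.78, SE 0.15, edgeR adjusted p = 0.211). Fmo2, a flavin-containing monooxygenase, stood at 87.0 and 105 CPM against 47.6 and 64.3 CPM (-0.78, SE 0.18, edgeR adjusted p = 0.485). The dorsal libraries were the higher ones in each of these genes.

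In other lower genes a single dorsal library carried much of the difference. Cldn18, a tight junction protein of stomach and lung, stood at 1.11 and 9.39 CPM against 0.259 and 0.711 CPM (-3.39, SE 0.81, edgeR adjusted p = 0.532). Nkx6-3, a homeobox factor of stomach epithelium, stood at 0.805 and 3.88 CPM against 0.518 and 0.415 CPM (-2.31, SE 0.66, edgeR adjusted p = 0.778). Its levels were higher in Ngn3-high cells, at 11.6 and 10.1 CPM dorsally and 18.8 and 13.7 CPM ventrally, so it does not mark stomach cells alone. Slc38a5, an amino acid transporter of alpha cells, stood at 13.7 and 34.6 CPM against 6.93 and 5.75 CPM (-1.93, SE 0.42, edgeR adjusted p = 0.602). Dorsal library 2 was the highest of the 4 for each, and the same held for Nepn, at 4.71 and 11.6 CPM against 2.01 and 2.13 CPM (-1.97, SE 0.41, edgeR adjusted p = 0.509). Akr1c13, Spock1, Mme, Disp2, Tmem27 and Mctp2 make up the rest, with log2 fold changes from -1.10 (Spock1) to -0.49 (Mctp2).

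The same 32 genes were then read in the other bulk comparisons, which share no library with this one although the spread of each gene was estimated over all 16. At E10.5, where 24.7% of all tested genes passed, 14 of the 16 higher genes passed, 10 of them higher (10.2% of all genes were) and 4 lower. Reln was among those higher, at 3.00 and 3.51 CPM in dorsal and 305 and 337 CPM in ventral E10.5 libraries (6.62, SE 0.27, edgeR adjusted p = 1.63e-09). Paqr9 was also higher there, at 7.18 and 9.04 CPM against 187 and 214 CPM (4.63, SE 0.15, edgeR adjusted p = 4.53e-12), and so was Robo2, at 5.36 and 4.02 CPM against 103 and 124 CPM (4.60, SE 0.15, edgeR adjusted p = 5.67e-12). The 4 genes that passed in the opposite direction were Slc5a9, Nod1, Sorcs1 and Kcnc2.

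Of the 16 lower genes, 14 passed at E10.5, 12 of them lower and 2 higher (Osgin1 and Mme). Of all tested genes, 24.7% passed there in either direction and 10.2% passed higher, the rest of those passing being lower. Among the 12, Gc stood at 79.3 and 75.3 CPM against 56.2 and 56.7 CPM (-0.45, SE 0.08, edgeR adjusted p = 0.000453), close in size to its difference in the Ngn3-low gate. Fmo2 stood at 35.1 and 33.2 CPM against 3.39 and 2.91 CPM (-3.45, SE 0.25, edgeR adjusted p = 8.75e-08). In Ngn3-high cells, where 0.537% of genes passed, 2 of the 32 did, Gc (-0.55, SE 0.10, edgeR adjusted p = 0.0236) and Fmo2 (-1.55, SE 0.25, edgeR adjusted p = 0.0102), both lower (0.475% of all genes were). None of the 32 passed at E17.5, where 0.0283% of genes did.

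**Figure D3:**
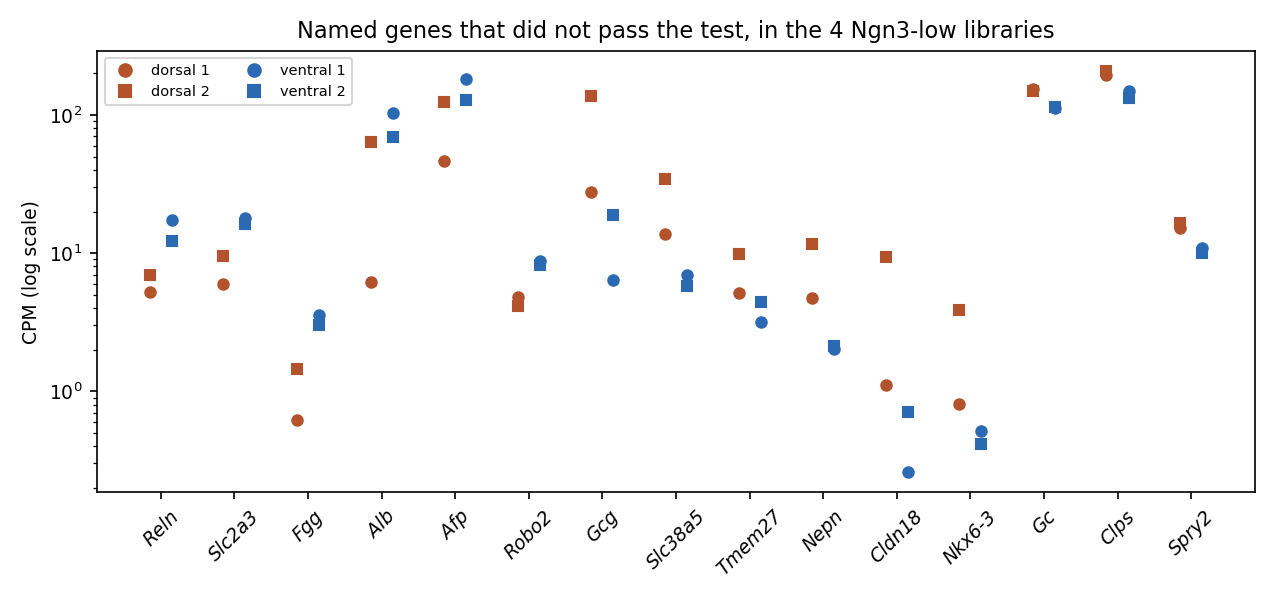
Levels (vertical axis, CPM, log scale) of 15 named genes that did not pass, with 1 point for each of the 4 Ngn3-low libraries. Gc, Clps and Spry2 show close replicates, whereas Gcg, Cldn18 and Nkx6-3 have 1 dorsal library well above the other, and Alb stands at 6.13 CPM in dorsal library 1 and 63.4 CPM in dorsal library 2.

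Alpha cell genes were next, since Gcg, Irx1 and Irx2 are known from the earlier dorsal endocrine wave. Gcg, which encodes glucagon, stood at 27.7 and 138 CPM in dorsal and 6.41 and 18.7 CPM in ventral libraries (-2.71, SE 0.88, edgeR adjusted p = 1). The dorsal libraries were both above the ventral ones, but dorsal library 2 was far above dorsal library 1. With no filter on low counts Gcg passed (edgeR adjusted p = 1.91e-101), as did Col1a1, whose replicates also lay far apart. In the other alternatives run Gcg did not pass. Irx1, an Iroquois homeobox factor, stood at 0.434 and 0.752 CPM against 0.130 and 0.119 CPM (-2.18, SE 0.57, edgeR adjusted p = 0.602). Irx2, of the same family, stood at 0.557 and 0.939 CPM against 0.259 and 0.237 CPM (-1.56, SE 0.46, edgeR adjusted p = 0.763). Neither passed at these levels of under 1 CPM, whereas in Ngn3-high cells Irx1 stood at 80.7 and 76.0 CPM against 15.54 and 12.9 CPM (-2.47, SE 0.15, edgeR adjusted p = 3.18e-07).

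None of the 12 alpha cell genes tested passed. In 5 of them both ventral libraries were below both dorsal ones (14.8% of all tested genes), in 1 above (13.3%), and the median log2 fold change was -0.21. The list summed to 230 and 389 CPM in dorsal and 210.5 and 203 CPM in ventral libraries, against 2968 to 6620 CPM in Ngn3-high cells. Ttr, transthyretin, made up much of it, at 165 and 188 CPM against 170 and 157 CPM, and did not separate the sides. Hormone and granule genes summed to 86.1 and 241 CPM in dorsal and 86.8 and 75.9 CPM in ventral libraries, against 19081 to 21161 CPM in Ngn3-high cells. None of these 20 genes passed (4 not overlapping and lower, 1 higher, with the same shares of all genes, median -0.44), and Gcg made up 138 of the 241 CPM of dorsal library 2.

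Endocrine progenitor genes had a lower sum in the gate than in Ngn3-high cells and were alike on the 2 sides. Of 22 genes tested, 0 passed, 3 had both ventral libraries above both dorsal ones (13.3% of all tested genes), 0 had both below (14.8%), and the median was -0.02. Their sums were 1023 and 1240 CPM in dorsal and 1064 and 1146 CPM in ventral libraries, where Ngn3-high cells had 8419 to 9145 CPM. Insm1, a zinc finger factor downstream of Neurog3, stood at 49.0 and 82.9 CPM against 49.0 and 65.1 CPM. Neurod1, a later factor of the same program, stood at 1.24 and 1.57 CPM against 1.30 and 0.652 CPM. Both were lower than in Ngn3-high cells, but not every member was. Sox4, a large part of the sum, stood at 500 and 549 CPM against 500 and 523 CPM, and in Ngn3-high cells at 391 to 489 CPM. Dll1 stood at 72.5 and 94.8 CPM against 81.0 and 85.4 CPM, and in Ngn3-high cells at 59.7 to 66.5 CPM.

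The acinar and trunk lists had the highest sums per gene length (RPKM) of the 31 lists in each library. The most abundant of these genes were Spp1, which encodes the trunk and duct protein osteopontin, at a mean of 1180 RPKM over the 4 libraries, the protease precursor gene Ctrb1 at 979 RPKM, the carboxypeptidase gene Cpa1 at 676 RPKM and the lipase-related gene Pnliprp1 at 638 RPKM. Clps stood at 310 RPKM. The acinar list summed to 3998 and 3645 RPKM in dorsal and 3244 and 2847 RPKM in ventral libraries. The trunk list summed to 2110 and 2474 RPKM against 1987 and 2332 RPKM. Acinar RNA was above trunk RNA in each library by this measure, whereas in CPM, which does not allow for gene length, the trunk sum was the higher one in each library. The lists also differ in their number of genes.

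No acinar gene passed. The acinar sums were 5258 and 4674 CPM in dorsal libraries and 4326 and 3815 CPM in ventral libraries, so that both ventral sums were below both dorsal ones. Of 28 genes 27 were tested, 9 had both ventral libraries below both dorsal ones (14.8% of all tested genes), 4 above (13.3%), and the median log2 fold change was -0.13. Cpa1 stood at 1294 and 1112 CPM in dorsal and 1012 and 863 CPM in ventral libraries (-0.36, SE 0.11, edgeR adjusted p = 0.822). Ctrb1 stood at 1027 and 968 CPM against 798 and 680 CPM (-0.43, SE 0.16, edgeR adjusted p = 1). Ptf1a, the transcription factor that acinar genes depend on, overlapped, at 37.7 and 25.2 CPM against 29.7 and 21.2 CPM. Genes of mature acinar cells such as Amy2a5, the pancreatic amylase, and Gp2 were below 1 CPM in all 4 libraries, as were 9 acinar genes in all, while the trypsinogen copies Prss1, Try4 and Try5 are near-identical and their counts uncertain.

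The enzyme genes were far above the Ngn3-high libraries, where the acinar list summed to 113 to 251 CPM. In Ngn3-high cells Cpa1 stood at 36.0 and 38.8 CPM in dorsal and 12.1 and 14.7 CPM in ventral libraries. The side difference of Cpa1 was -1.47 on the log2 scale there (edgeR adjusted p = 2.15e-05) and -0.36 in the Ngn3-low gate, and the difference of the differences passed (1.11, SE 0.17, edgeR adjusted p = 0.0336). This call on Cpa1 was lost with the 8 E14.5 libraries alone (edgeR adjusted p = 0.0907), with a spread not estimated robustly (0.0734), without dorsal Ngn3-low library 2 (0.0964) or ventral Ngn3-low library 1 (0.0664), and without any 1 Ngn3-high library (0.0547 to 0.318).

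The trunk sums overlapped between the sides. They were 5368 and 6146 CPM in dorsal and 5066 and 5943 CPM in ventral libraries, against 1802 to 1837 CPM in Ngn3-high cells. Of 18 genes, 0 passed, 6 had both ventral libraries below both dorsal ones (14.8% of all tested genes) and 0 above (13.3%), and the median was -0.04. Sox9, the factor that marks progenitors and ducts, stood at 480 and 532 CPM against 457 and 524 CPM. Spp1 stood at 1631 and 2026 CPM against 1516 and 1943 CPM. For both genes library 2 was the higher one on each side, and the sides overlapped. Krt19, a duct keratin, had the smallest p of the list, at 71.8 and 90.9 CPM against 67.1 and 62.9 CPM (-0.32, SE 0.10, edgeR adjusted p = 0.836).

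Progenitor transcription factors were also close, with a median log2 fold change of -0.05. Pdx1, the factor that defines the pancreas, stood at 166 and 152 CPM in dorsal and 145 and 160 CPM in ventral libraries (-0.06, SE 0.09, edgeR adjusted p = 1). Nkx6-1, a trunk and beta cell factor, stood at 212 and 236 CPM against 200 and 210 CPM (-0.13, SE 0.33). Gata4, a factor of the tips, stood at 72.8 and 76.1 CPM against 60.2 and 52.2 CPM (-0.41, SE 0.13, edgeR adjusted p = 0.977). Wider differences were seen at low levels. Nkx6-2, with the lowest fold change of the list, stood at 4.09 and 4.07 CPM against 1.62 and 2.37 CPM (-1.02, SE 0.56). Mnx1 stood at 3.22 and 4.32 CPM against 2.91 and 2.19 CPM (-0.57, SE 0.28). Of the 20 factors tested, 0 passed, 5 had both ventral libraries below both dorsal ones (14.8% of all tested genes) and 1 above (13.3%; Hhex, at 114 CPM in each dorsal library against 130 and 129 CPM, a factor of the liver and ventral pancreas).

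The 12 general epithelial genes summed to 4475 and 4868 CPM in dorsal and 4097 and 4300 CPM in ventral libraries, 8 of 12 had both ventral libraries below both dorsal ones (14.8% of all tested genes), 0 passed and the median was -0.14. Krt8, a simple epithelial keratin, stood at 806 and 855 CPM against 719 and 683 CPM (-0.25, SE 0.12). Cdh1, E-cadherin, stood at 1301 and 1436 CPM against 1152 and 1300 CPM (-0.16, SE 0.09). The part of other cell types in this sum was not tested.

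**Figure D4:**
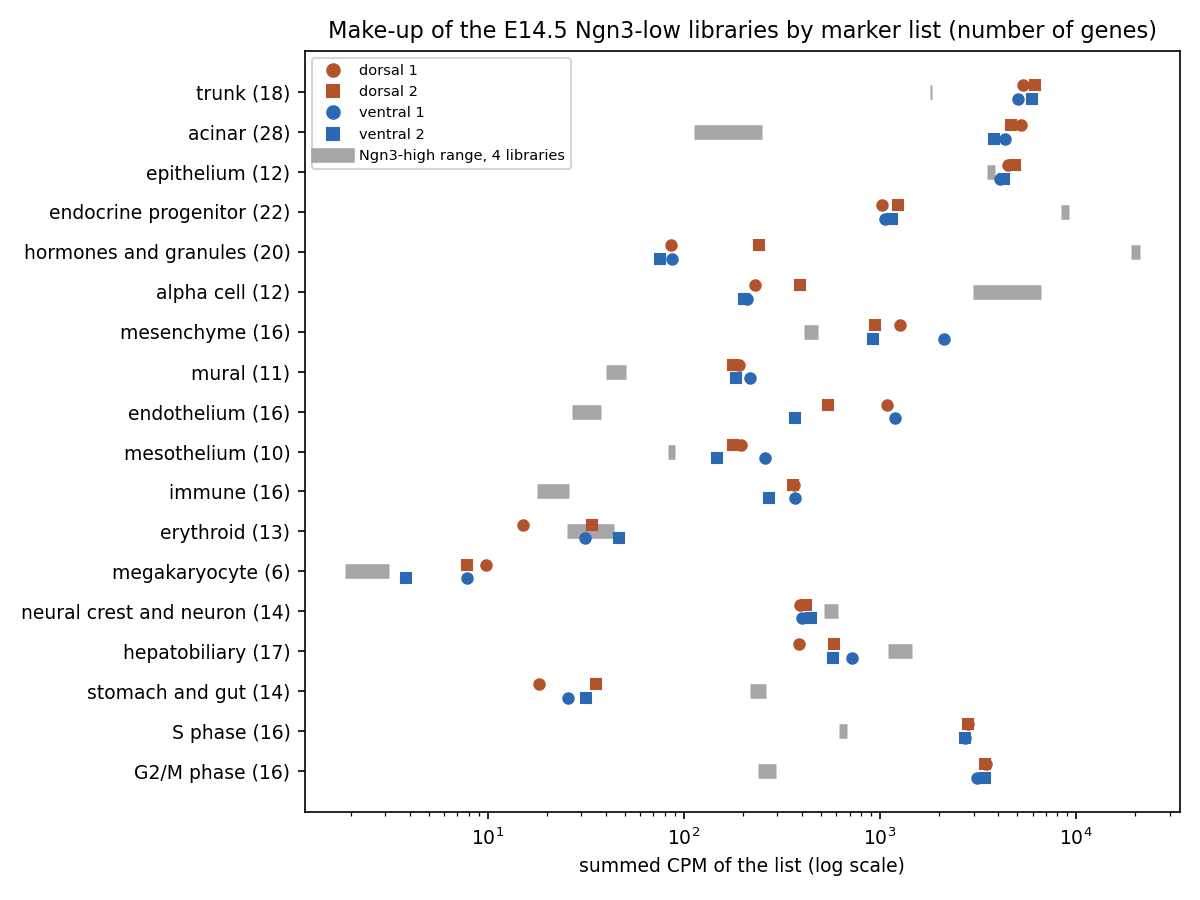
Summed level of each marker list (horizontal axis, CPM, log scale) in the 4 Ngn3-low libraries (points) and its range over the 4 Ngn3-high libraries (grey bars). Acinar, endothelial and immune sums of the Ngn3-low libraries lie to the right of the grey bars and endocrine, hormone and alpha cell sums to the left; endothelial sums separate library 1 from library 2 on both sides.

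Vessel RNA varied between libraries more than between sides. The 16 endothelial markers summed to 1085 and 546 CPM in dorsal and 1192 and 369 CPM in ventral libraries, against 27.0 to 37.6 CPM in Ngn3-high cells. All 16 were higher in library 1 on both sides, where 45% of all genes were in dorsal and 51% in ventral libraries, and the sums of libraries 1 and 2 differed 1.99-fold dorsally and 3.23-fold ventrally. Kdr, a receptor for VEGF on endothelial cells, stood at 174 and 78.8 CPM in dorsal and 181 and 59.7 CPM in ventral libraries. Cdh5, the endothelial cadherin, stood at 197 and 101 CPM against 226 and 66.4 CPM. None of the 16 passed or had groups that did not overlap, and the median was -0.08.

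Mesenchymal RNA was highest in ventral library 1. The 16 genes summed to 1259 and 945 CPM in dorsal and 2109 and 918 CPM in ventral libraries, against 408 to 481 CPM in Ngn3-high cells. The median log2 fold change was 0.92, 0 passed, and 2 had both ventral libraries above both dorsal ones (13.3% of all tested genes). Col1a1, a fibrillar collagen of mesenchyme, stood at 144 and 70.1 CPM against 443 and 105 CPM (1.35, SE 0.79, edgeR adjusted p = 1). Vim, vimentin, made up much of the sum and overlapped, at 730 and 673 CPM against 709 and 560 CPM. Dpt had 0 reads in all 4 libraries. Mural cell genes summed to 192 and 177 CPM against 218 and 184 CPM, and mesothelial genes to 196 and 177 CPM against 260 and 148 CPM. In both of these lists ventral library 1 was the highest of the 4, and 0 genes passed. The mesothelial sums include Krt19, a duct keratin that is also on the trunk list. It stood at 71.8 and 90.9 CPM in dorsal and 67.1 and 62.9 CPM in ventral libraries.

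Immune RNA was present in every library. The 16 genes tested summed to 362 and 358 CPM in dorsal and 368 and 272 CPM in ventral libraries, where Ngn3-high cells had 17.9 to 25.9 CPM. The macrophage receptor gene Csf1r stood at 59.6 and 59.7 CPM against 57.0 and 45.8 CPM (-0.21, SE 0.81). Mrc1, the mannose receptor of resident macrophages, stood at 58.4 and 77.0 CPM against 42.2 and 40.0 CPM (-0.72, SE 0.84), and Lyz2, a myeloid lysozyme, at 30.9 and 29.7 CPM against 36.2 and 29.8 CPM. Ptprc, the pan-leukocyte receptor CD45, overlapped at 15.3 to 22.9 CPM. Of the 16 genes 0 passed, 3 had both ventral libraries below both dorsal ones (14.8% of all tested genes; Csf1r, Mrc1 and Cx3cr1), and the median was -0.09.

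Per gene length, the endothelial list summed to 331 and 170 RPKM in dorsal and 366 and 115 RPKM in ventral libraries, the mesenchyme list to 430 and 357 RPKM against 583 and 322 RPKM, and the immune list to 180 and 175 RPKM against 196 and 136 RPKM. Each was below the acinar and trunk sums in every library. Vim led the mesenchyme list with a mean of 305 RPKM, close to the 310 RPKM of Clps, while the highest means of the endothelial and immune lists were Cdh5 at 37.1 RPKM and Lyz2 at 25.0 RPKM. Red cell genes summed to 15.1 and 34.1 CPM in dorsal and 31.3 and 46.8 CPM in ventral libraries, and their globin copies are near-identical and uncertain. Megakaryocyte genes summed to 9.85 and 7.83 CPM against 7.84 and 3.85 CPM. No gene of either list passed.

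Liver genes separated dorsal library 1 from the rest. The hepatobiliary list summed to 384 and 584 CPM in dorsal and 723 and 579 CPM in ventral libraries. Alb, serum albumin, stood at 6.13 and 63.4 CPM against 104 and 69.8 CPM (1.32, SE 0.87, edgeR adjusted p = 1), and Afp, alpha-fetoprotein, at 46.3 and 124 CPM against 183 and 128 CPM (0.87, SE 0.51, edgeR adjusted p = 1). For both genes dorsal library 2 lay just under ventral library 2 and dorsal library 1 lay far below. Of 16 genes tested, 0 passed, 10 had both ventral libraries above both dorsal ones (13.3% of all tested genes), 0 had both below (14.8%), and the median was 0.92. The list as a whole was higher in Ngn3-high cells (1097 to 1459 CPM), through Ttr and Rbp4, while Alb was at 1.38 to 5.58 CPM there.

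Neural crest and neuron genes summed to 389 and 420 CPM in dorsal and 401 and 443 CPM in ventral libraries. Erbb3, a receptor that pancreatic epithelium also expresses, made up most of this, at 303 and 344 CPM against 289 and 333 CPM. Sox10, which marks neural crest and glia, stood at 18.95 and 19.98 CPM against 32.6 and 35.1 CPM (0.80, SE 0.28, edgeR adjusted p = 1), with close replicates on each side. Stomach and gut genes summed to 18.3 and 35.5 CPM against 25.5 and 31.8 CPM, with dorsal library 1 the lowest. Ngn3-high cells had 217 to 261 CPM for these stomach and gut genes. No gene of either list passed.

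Cell cycle genes were high in the gate and nearly equal on the 2 sides. S phase genes summed to 2823 and 2805 CPM in dorsal and 2718 and 2720 CPM in ventral libraries, and G2/M genes to 3486 and 3427 CPM against 3126 and 3416 CPM. Both ventral sums were below both dorsal ones in each list, with medians of -0.06 and -0.07 and no gene passing. In the S phase list 11 of 16 genes had both ventral libraries below both dorsal ones, where 14.8% of all tested genes did. Ngn3-high cells had 616 to 678 CPM for S phase genes and 240 to 296 CPM for G2/M genes.

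In the lists with 0 genes passing, some had genes at an unadjusted p under 0.05 in edgeR, where 1.98% of all tested genes were higher and 1.41% lower. Among these were 1 higher and 4 lower acinar genes, 3 lower trunk genes, 1 higher and 5 lower alpha cell genes, 1 higher and 3 lower hormone and granule genes, 3 higher hepatobiliary genes and 4 higher neural genes. There were 0 among the endothelial, immune, mesenchymal, endocrine progenitor, S phase and G2/M genes. DESeq2 called Slc38a5 and Tmem27 of the alpha cell list and Fgg of the hepatobiliary list, and 0 genes of the others named here.

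Over all 31 lists, the ventral sums were both above the dorsal ones in 2, Notch and FGF genes, both below in 5, the acinar, epithelial, alpha cell, S phase and G2/M lists, and overlapping in 24. A sum can differ from most of its members. Of the 16 FGF genes, 6 had a log2 fold change above 0 (45.6% of all tested genes) and 10 below, with a median of -0.03. No model was fitted to the sums, and an exact permutation test of 2 libraries against 2 cannot give a two-sided p below 0.333.

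Signalling genes passed in no pathway. In the Notch pathway, 0 of 18 genes passed and 4 had both ventral libraries above both dorsal ones (13.3% of all tested genes), among them the receptor gene Notch1 at 404 and 417 CPM against 452 and 445 CPM (0.13, SE 0.12). Among 16 FGF genes, the ligand gene Fgf9 stood at 5.51 and 6.14 CPM against 8.22 and 8.06 CPM (0.48, SE 0.22), the receptor gene Fgfr2 at 411 and 455 CPM against 470 and 518 CPM (0.19, SE 0.09), and the inhibitor Spry2 was lower as given above. Of 16 BMP genes 5 had both ventral libraries higher (13.3% of all tested genes). Among them was the ligand gene Bmp4 at 0.743 and 0.438 CPM against 4.08 and 0.771 CPM (2.01, SE 0.62, edgeR adjusted p = 0.859). Bmp4 was highest in ventral library 1, the library rich in collagen RNA. The part of mesenchymal cells in the Bmp4 difference was not tested.

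Of 17 Wnt genes tested, 0 passed and 4 had both ventral libraries higher (13.3% of all tested genes). Among them were the receptor gene Fzd7 at 80.6 and 91.1 CPM against 105 and 107 CPM (0.31, SE 0.10) and the stem cell gene Lgr5 at 4.15 and 4.13 CPM against 5.63 and 7.23 CPM (0.64, SE 0.29). Among 13 Hedgehog genes tested, the inhibitor Hhip stood at 12.2 and 14.0 CPM against 9.20 and 9.66 CPM (-0.48, SE 0.23). The ligand gene Shh stood at 0 and 6.01 CPM against 3.24 and 4.92 CPM, and Ihh at 0.0619 and 7.89 CPM against 2.27 and 3.67 CPM. In both ligands dorsal library 1 was lowest and dorsal library 2 highest. Of 13 retinoic acid genes tested, the binding protein gene Crabp1 had the smallest p, at 0.557 and 0.438 CPM against 1.75 and 1.30 CPM (1.59, SE 0.45, edgeR adjusted p = 0.725).

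**Figure D5:**
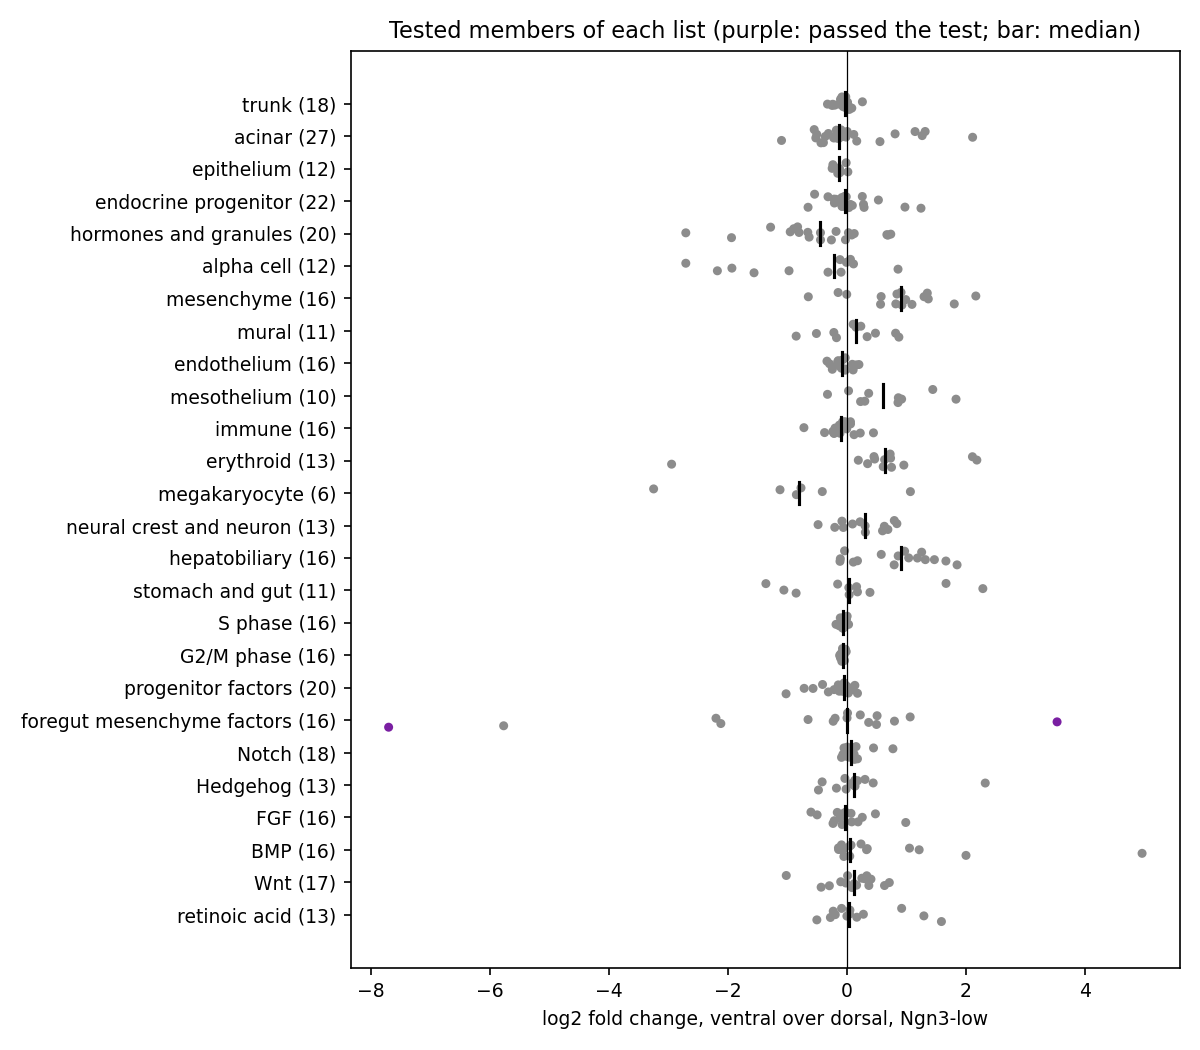
Log2 fold change, ventral over dorsal (horizontal axis), of every tested member of 26 lists in the Ngn3-low gate, with 1 point per gene, a bar at the median and genes that passed in purple. The 2 purple points, Barx1 and Shox2, lie in the list of foregut mesenchyme factors, and the medians of the mesenchyme and hepatobiliary lists stand at 0.92.

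The side difference in the Ngn3-low gate was tested against that in the Ngn3-high gate. Of 17690 genes 5 passed (0.0283%, edgeR quasi-likelihood test with Benjamini-Hochberg adjustment). All had a ventral-minus-dorsal difference of higher signed value, but smaller size, in Ngn3-low than in Ngn3-high cells. In each of the 5 the Ngn3-high cells had a lower ventral level and the Ngn3-low cells did not pass. At an unadjusted p under 0.05 there were 717 of the 17690 genes tested, a share below that threshold. Without dorsal Ngn3-high library 1 edgeR called 0 genes, with 539 at an unadjusted p under 0.05, and without dorsal Ngn3-high library 2 it called 0, with 609.

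Wnk3, which encodes a kinase that regulates ion cotransport, lies on chromosome X from 151198078 to 151320152. It stood at 13.5 and 16.8 CPM in dorsal and 14.1 and 14.2 CPM in ventral Ngn3-low libraries, against 385 and 417 CPM and 131 and 162 CPM in Ngn3-high libraries. Its side difference was -0.10 in Ngn3-low and -1.45 in Ngn3-high cells (difference 1.35, SE 0.17, edgeR adjusted p = 0.0145). Pnliprp1 stood at 1187 and 1038 CPM in dorsal and 1010 and 898 CPM in ventral Ngn3-low libraries, and at 29.8 and 31.3 CPM against 6.32 and 10.2 CPM in Ngn3-high libraries (difference 1.64, SE 0.22, edgeR adjusted p = 0.0145). Besides the dorsal Ngn3-high libraries, leaving out dorsal Ngn3-low library 2 ended the call on Pnliprp1 (edgeR adjusted p = 0.0596), as did a fit on the 8 E14.5 libraries (0.0646). The call on Wnk3 held in both. Both genes thus separated the sides in the high gate far more than in the low gate, Wnk3 at a much lower and Pnliprp1 at a much higher level in the low gate.

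Stk32b, a serine/threonine kinase gene, stood at 5.14 and 4.45 CPM against 5.83 and 5.87 CPM in the Ngn3-low gate and at 7.68 and 5.96 CPM against 2.45 and 1.99 CPM in the Ngn3-high gate (difference 1.93, SE 0.29, edgeR adjusted p = 0.0297). Itpr1, the type 1 receptor for inositol trisphosphate, which releases calcium from the endoplasmic reticulum, stood at 85.0 and 90.4 CPM against 84.9 and 86.1 CPM, and at 298 and 289 CPM against 173 and 162 CPM in Ngn3-high cells (difference 0.77, SE 0.12, edgeR adjusted p = 0.0476). The call on Stk32b was lost with the 8 E14.5 libraries alone (edgeR adjusted p = 0.107) and without dorsal Ngn3-low library 2 (0.0933), ventral Ngn3-low library 1 (0.0616) or any 1 Ngn3-high library (0.0670 to 0.236). The call on Itpr1 was lost without any 1 of the 8 E14.5 libraries (edgeR adjusted p from 0.0732 to 0.343), and neither passed with a spread not estimated robustly. The fifth gene is Cpa1, given above.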

How the data were processed

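RNA was measured in 4 bulk libraries of sorted E14.5 Ngn3-GFP-low cells, 2 ventral and 2 dorsal. Per the submitters' processing notes, the tools were TopHat2 2.1.0, Bowtie2 and HTSeq 0.6.0 with the build GRCm38 (mm10). The deposited table holds whole-number counts of reads for 40824 genes and 92 spike-ins, and the spike-ins were left out. The library kit marks strand, but neither the strand setting of the counting nor the annotation release is stated (not given in the sources used here), so overlapping antisense genes may share reads. The authors' deposited RPKM, which pool the libraries of a group, were used only as a check: 0 of 326592 values differed by more than 0.0051 from RPKM computed here from the pooled counts.

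After a filter on low counts by group and TMM scaling, genes were tested in edgeR 4.0.16 (limma 3.58.1, R 4.3.3) by the quasi-likelihood F test with a robust estimate of the spread, in 1 model of the 8 bulk groups of 2 libraries. P-values were adjusted by Benjamini-Hochberg over 17690 genes, with a threshold of 0.05. A standard error (SE) is the log2 fold change over the root of its F statistic, without sign. RPKM computed here divides CPM by gene length. A floor of 3 reads covers counting error only.

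Members and lists were chosen with earlier results of these data known. Named genes are those that passed, up to 8 per direction with groups that do not overlap at a mean log2 CPM from 3 upward and up to 8 more from 0 to 3, up to 4 members of each list by p and 5 by level, and 14 set genes. Gene models without a name, ribosomal and mitochondrial genes were left out of those picked by level and overlap. Genes whose library values are given outside this rule (Shh, Ihh, Wnk3, Stk32b, Itpr1) were chosen after their values were seen. Coordinates are from GENCODE vM21 and promoters from RefSeq. The code was tested on simulated data. Other settings tried were RLE scaling, DESeq2 1.42.0, no filter, fewer libraries in the model, a replicate block, a test against a 1.5-fold change, a spread without the robust step, and each library left out.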

Additional observations from a re-analysis of the deposited data

Results flagged for a closer look

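A test of the difference between gates singled out 5 genes (edgeR quasi-likelihood test, Benjamini-Hochberg adjustment). Their ventral-minus-dorsal log2 difference had a higher signed value, but a smaller size, in Ngn3-low than in Ngn3-high cells. The difference between gates was 1.35 for Wnk3 (adjusted p = 0.0145), 1.64 for Pnliprp1 (adjusted p = 0.0145), 1.93 for Stk32b (adjusted p = 0.0297), 1.11 for Cpa1 (adjusted p = 0.0336) and 0.77 for Itpr1 (adjusted p = 0.0476). In the Ngn3-low gate the side differences of these genes were -0.10, -0.22, 0.29, -0.36 and -0.04, and in the Ngn3-high gate -1.45, -1.87, -1.65, -1.47 and -0.81, in the same order.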

How the results depend on the processing

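The count of genes passing in the Ngn3-low gate, 3 in the fit reported, was 16 with DESeq2 (8 higher and 8 lower), 137 with no filter on low counts, 1 with the 8 E14.5 libraries only and 1 with the 4 Ngn3-low libraries only. It was 3 with RLE size factors, with a spread not estimated robustly (chosen after seeing the data) and against a 1.5-fold change. With 1 Ngn3-low library left out it ranged from 4 to 16, highest without dorsal library 1 (16) and also above the reported count without dorsal library 2 (13) and ventral library 2 (8). The replicate block gave 152 genes. Libraries of the same number share only a number as far as the labels say, and their deviations from the group means had r = 0.441 between the sides. Sim1 passed under every alternative run; Shox2 and Barx1 did not, as given above, and 0 results reversed. The cause of these shifts was not tested, except that the smaller models hold fewer libraries.

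The count for the difference between gates, 5 in the fit reported, was 40 with DESeq2, 146 with no filter, 192 with the replicate block and 2 with a spread not estimated robustly. It was 5 with RLE size factors and with the 8 E14.5 libraries, of which 2 were shared with the reported 5. With 1 library left out it ranged from 0 to 10. With the plain library total in place of the TMM-adjusted one, the summed list levels were 1.04 to 1.06 times those given, and 34 of 124 moved by more than 1 SD. Counted on the plain library total, 3 reads in a library are worth 0.189 to 0.206 CPM. On the TMM-adjusted total they are worth slightly less, and lower levels rest on fewer reads.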
